A study of Sus scrofa with 16 samples.

Results

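The native pairing sets each breed at its home elevation, Tibetan highland pigs (TH) at 3000 m against Yorkshire lowland pigs (YL) at 100 m. Its members were the methylation peaks of the TH and YL lists on chromosomes 1 to 18, 564515 peaks of 1159046 in the 4 lists of the series. Of these, 258861 were TH peaks and 305654 were YL peaks. All animals were castrated boars of 6 months of age, and heart tissue of 4 animals per group was examined by methylated DNA immunoprecipitation sequencing (MeDIP-seq). The other groups, Tibetan lowland pigs (TL, 100 m) and Yorkshire highland pigs (YH, 3000 m), came from herds moved to the other elevation and bred there for 1 generation, with 240851 and 263514 peaks on the same chromosomes. Pigs at the same elevation were kept on the same feeding, so elevation here also stands for the place, the climate and the herd. TH and YL differ in breed and elevation at once, and from these lists alone the 2 cannot be told apart. TL and YH reverse the pairing in other animals, and their peaks at the windows that differed between TH and YL were therefore read beside them. A window with more peaks in the same breed in both pairs is described as in the direction of breed, and a window with more peaks at the same elevation in both as in the direction of elevation. Tissue was taken from the labels, because peak lists hold no expression by which a heart marker could be checked.

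DNA methylation in mammals is mostly the addition of a methyl group to cytosine in CpG dinucleotides, and in promoters it usually goes with a closed chromatin and low transcription. In MeDIP an antibody against 5-methylcytosine pulls down sheared DNA, so a peak marks a region with many methylated CpGs, whose reads (tags) also rise with the number of DNA copies of the region. Highland air holds less oxygen, and the heart answers to this over time through vessel growth, blood supply and a change in the fuels it burns.

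Each group had 4 animals, and no base lay under more than 4 peaks of its list, which name no animal. Each list was taken to put the peaks of its 4 animals together, and a position with 3 peaks, for example, to have a peak in 3 of them. The median peak held 27 tags and measured 992 bp in TH, against 30 tags and 1040 bp in YL. The TH peaks covered 177 Mb and held 9688700 tags, and the YL peaks covered 201 Mb and held 12752744 tags. The YL list was the longest of the series and held the most tags in its peaks. Tags in peaks rise with the number and length of the peaks and do not measure the depth of sequencing, whose part in counts that favour YL was not tested. Intervals in brackets are 95% Wilson intervals, which cover counting error only and treat neighbouring peaks as independent.

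Most peaks of each native group met a peak of the other, while less of the covered sequence was common to both. Of the TH peaks, 79.8% (79.65% to 79.96%) overlapped a YL peak by at least 1 bp, and 76.6% (76.4% to 76.7%) of the YL peaks overlapped a TH peak. Counted by bases, 121 Mb lay under peaks of both lists, which was 68.5% of the TH bases and 60.2% of the YL bases. The shared part was 0.471 of all bases under either list. The reversed pair, TL and YH, had a value of 0.455.

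Peaks found in 1 list only held fewer tags and were shorter than shared peaks. The 52272 private TH peaks had a median of 20 tags and 825 bp, against 29 tags and 1044 bp for TH peaks that met a YL peak. The 71592 private YL peaks had a median of 22 tags and 855 bp, against 33 tags and 1114 bp for shared YL peaks. The median fold enrichment was 8.02 for private and 8.32 for shared TH peaks, and 7.49 for both kinds of YL peaks. Private peaks were sorted by the lists of the other groups. Among private TH peaks, 20.5% met a peak of the same breed (TL) and none of YH, 13.3% met a peak of the same elevation (YH) and none of TL, 17.2% met both and 49.0% met neither. Among private YL peaks, 24.8% met YH only, 11.9% met TL only, 26.0% met both and 37.3% met neither. Of the shared peaks, 6.87% in TH and 6.04% in YL met neither. In both lists the list of the same breed alone held more of the private peaks than the list of the same elevation alone. Among shared YL peaks the order was the same, with 11.02% that met YH only and 6.64% that met TL only, and among shared TH peaks it was the opposite, with 7.72% that met TL only and 10.49% that met YH only. TL was the shortest of the 4 lists, which lowers the share that can meet TL in either case.

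The genome was then cut into 500 bp windows, and the peaks of each list over base 250 of a window were counted. At least 1 TH or YL peak lay over 513884 windows. TH had more peaks in 30.8% of these, YL had more in 49.96%, and the counts were equal in 19.2%. All 8 animals had a peak in 12897 windows, or 2.51%. In the plot of windows by their numbers of TH and YL peaks, single peaks of 1 list made up the largest cells, with 115075 windows of 1 YL peak alone and 88366 of 1 TH peak alone.

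**Figure D1:**
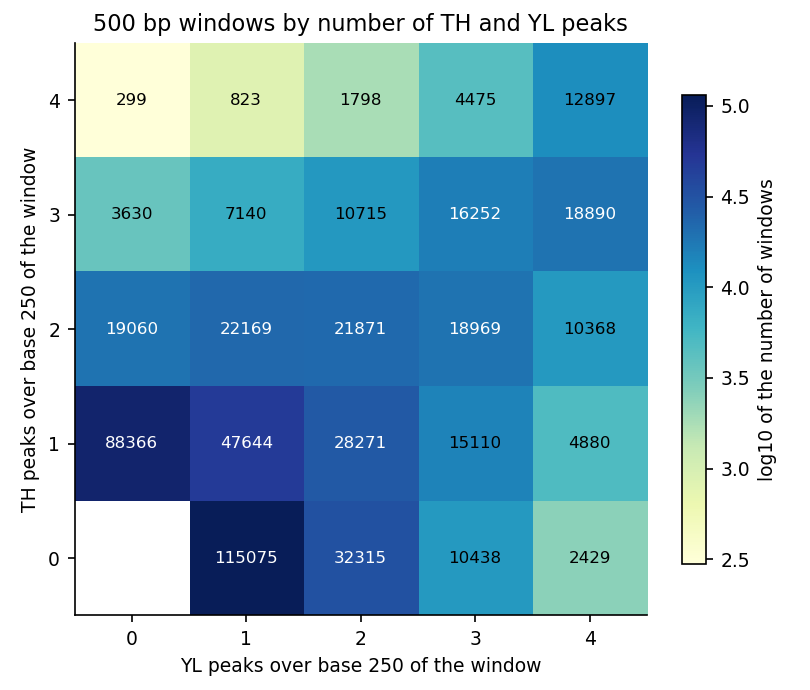
Number of 500 bp windows by the number of TH peaks (vertical axis) and YL peaks (horizontal axis) over base 250, with the colour on a log10 scale; windows without a peak of either list are left out. The corner of 0 TH and 4 YL peaks holds 2429 windows and the corner of 4 TH and 0 YL peaks holds 299.

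Windows that separated the native groups in full were rare and lay mostly on the Yorkshire side. Peaks in 4 TH animals and 0 YL animals were found in 299 windows, 0.0582% of those tested, and peaks in 4 YL animals and 0 TH animals in 2429 windows, 0.473%. The TH side held 10.96% (9.84% to 12.2%) of these 2728 windows. Fisher's exact test of 4 animals against 4 gives p = 0.0286 for such a window, the smallest p this design allows, and p = 0.143 for 3 against 0. After Benjamini-Hochberg adjustment over all tested windows, 0 windows passed 0.05 in Fisher's exact test, with an adjusted p of 1 throughout, while 2728 had an unadjusted p under 0.05. The TH share was 18.02% when the YL list was reduced by tags to as many peaks as the TH list, and 6.01% with peaks of at least 20 tags, which left 135 TH windows. With at least 3 peaks against 0 it was 23.4%, so its size changed with the selection of peaks while YL stayed the larger side in all 3 settings.

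The windows joined into 229 runs on the TH side and 1668 runs on the YL side. Of the TH runs, 162 were a single window, 64 were 2 windows and 3 were 3 windows long. Of the YL runs, 1056 were a single window, 503 were 2 windows, 84 were 3 windows and 25 were 4 to 8 windows long. The peaks over the TH windows held fewer tags than the list as a whole, with a median of 23 against 27, but had a higher median fold enrichment, 9.31 against 8.28. Those over the YL windows held more tags, 33 against 30, with a median fold enrichment of 7.41 against 7.49. Peaks over the YL windows were also longer, 1193 bp against 1040 bp, while those over the TH windows were 975 bp against 992 bp.

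A count of 0 at base 250 did not always mean an empty neighbourhood. The nearest peak of the other list was 2688 bp away in the median of the 299 TH windows and 2167 bp away in the median of the 2429 YL windows. It was within 500 bp at 26.4% of the TH windows and 30.6% of the YL windows, where the lists can differ in the edge of a peak. It was beyond 2000 bp at 166 TH windows (55.5%) and 1243 YL windows (51.2%).

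The same tilt was found on each chromosome. On all 18 chromosomes the YL side held more windows than the TH side, with 3.19 to 6.34 YL windows per 1000 tested windows and 0.187 to 0.918 TH windows. Chromosome 15 was highest on both sides. Chromosome 16 was lowest on the YL side with 51 windows, and there the TH share was highest, at 21.5%. Chromosome 12 had the lowest TH share, 3.85%, from 4 TH and 100 YL windows. The outer 10% at each end of the chromosomes held 28.4% (23.6% to 33.8%) of the TH windows and 27.2% (25.5% to 29.0%) of the YL windows, against 29.9% of tested windows and 38.1% (37.3% to 38.9%) of the windows with a peak in all 8 animals. Windows with a peak in all 8 animals lay at the ends more often than tested windows, while the share of the YL windows was below that of tested windows and the interval of the TH windows held it.

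**Figure D2:**
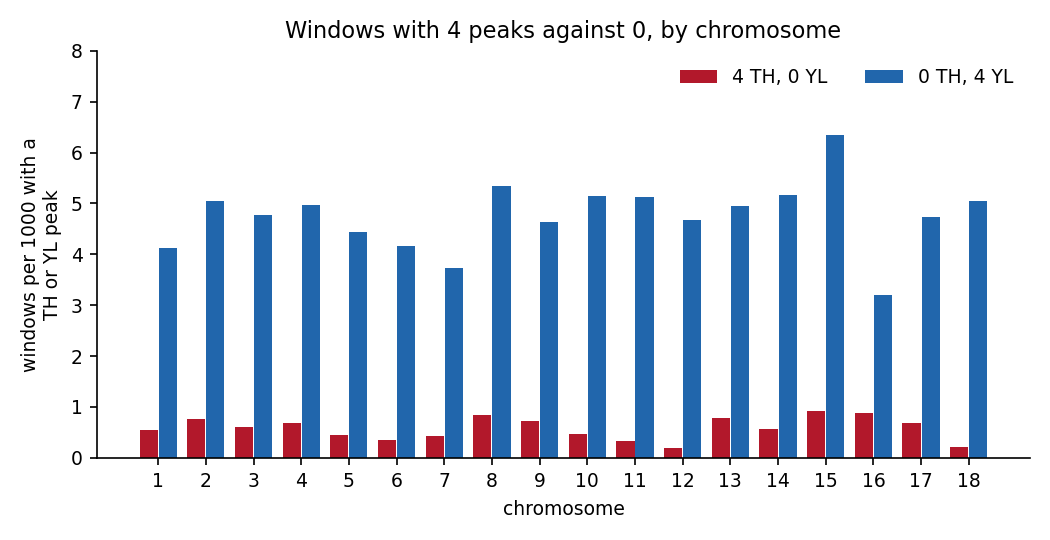
Windows with 4 peaks against 0 between TH and YL per 1000 windows with a TH or YL peak (vertical axis) on chromosomes 1 to 18 (horizontal axis), with 1 bar for each side. The YL bars run from 3.19 to 6.34 and the TH bars from 0.187 to 0.918, with no overlap.

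The reversed pair was then used to read breed against elevation at these windows. Over all tested windows, TL had more peaks than YH in 19.3% and YH had more than TL in 31.9%. At the 2429 windows of the YL side, YH had more peaks in 1607 (66.2%, 64.3% to 68.0%), which is the direction of breed, and TL had more in 297 (12.2%, 10.98% to 13.6%), which is the direction of elevation. YH had a mean of 2.17 peaks there and TL 1.08. At least 3 YH and at most 1 TL animals had a peak at 591 of them (24.3%), against 5.31% of all tested windows. At least 3 TL and at most 1 YH animals had a peak at 43 (1.77%), near the 2.09% of all tested windows. The full separation by breed, 4 YH against 0 TL, was found at 92 of these windows (3.79%), and the opposite, 4 TL against 0 YH, at 0. Among the 448142 windows with a TL or YH peak, 0.456% had 4 YH against 0 TL and 0.110% had 4 TL against 0 YH.

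The TH side gave the same order by breed. At its 299 windows, TL had more peaks than YH in 149 (49.8%, 44.2% to 55.5%) and YH had more in 60 (20.1%, 15.9% to 24.97%). The mean was 1.69 TL peaks and 1.13 YH peaks, although TL had fewer peaks than YH over all tested windows. At least 3 TL and at most 1 YH animals had a peak at 40 windows (13.4%, against 2.09% of all tested windows). The reverse was found at 8 (2.68%, against 5.31%). The full separation, 4 TL against 0 YH, was found at 3 windows, and 4 YH against 0 TL at 0. Neither TL nor YH had a peak at 30 of the TH windows (10.03%) and 139 of the YL windows (5.72%), so there only 1 group had peaks. Over all tested windows the share with neither was higher, 33.5%, and at windows with 2 TH and 2 YL peaks it was 8.29%.

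As a reference with no difference between the native groups, the 21871 windows with 2 TH and 2 YL peaks were taken. TL had more peaks in 27.0% of these and YH in 42.5%. The share with more TL was thus above this level at the TH windows and below it at the YL windows. On each of the 18 chromosomes, the share with more YH at YL windows was above that of its tested windows (57.0% to 76.6% at the YL windows), and so was the share with more TL at TH windows. The TH side rested on few windows, only 4 each on chromosomes 12 and 18. On chromosome 16 its share with more TL was 21.4% of 14 windows, against 19.1% of tested windows. Beyond 2000 bp from a peak of the other list, breed gave the larger share on both sides as well, with 54.8% more TL against 18.1% more YH at TH windows and 66.2% more YH against 12.9% more TL at YL windows. No window in the reversed pair passed Fisher's exact test after adjustment (adjusted p = 1, 0 of 448142, with 2536 under an unadjusted p of 0.05). The smallest p of Fisher's exact test in this design, 0.0286, is too large for adjustment over so many windows, so no single window could be judged. The shares describe a direction over many windows of the same animals, and whether breed or elevation caused it was not tested.

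**Figure D3:**
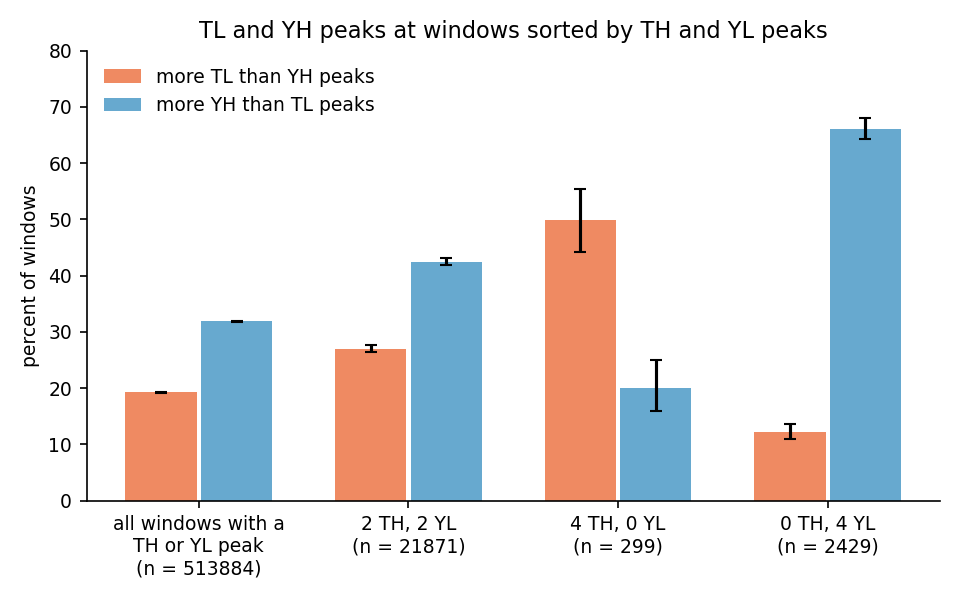
Percent of windows (vertical axis) with more TL than YH peaks or more YH than TL peaks, for 4 classes of windows set by their TH and YL peaks (horizontal axis, with the number of windows); error bars are 95% Wilson intervals. More TL peaks are found in 49.8% of the windows with 4 TH and 0 YL peaks and in 12.2% of those with 0 TH and 4 YL peaks.

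The longest runs show the size of the regions behind these counts. All coordinates are those of Sscrofa10.2, and genes or other features at the runs are not given because no annotation of that build was used. The longest on the YL side were both 8 windows long. At chr7:5231001-5235000 the 4 YL peaks held 348, 238, 301 and 158 tags, and the nearest TH peak was 10956 bp away. TL and YH had 2 peaks each over this run, so the reversed pair did not separate breed from elevation there. At chr11:863501-867500 the 4 YL peaks held 269, 183, 293 and 258 tags, TH had 0 peaks within 7557 bp, YH had 2 peaks and TL had 2 to 4. TL had more peaks than YH, the direction of elevation, over the part of the run where TL had more than 2, and elsewhere in the run the counts were equal.

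The next 3 runs of the YL side differed among themselves. At chr16:83231001-83234000 (6 windows) the YL peaks held 94 to 196 tags, TL had 2 peaks and YH 2 to 3. At chr6:154451501-154454000 (5 windows) the YL peaks held 121 to 241 tags and TL had 0 to 1 peaks and YH 1, but a TH peak lay 454 bp away. At chr8:43381501-43384000 (5 windows) the YL peaks held 73, 165, 134 and 154 tags, YH had 2 to 3 peaks, and neither Tibetan group had any. Of these 5 runs, the last had more YH than TL peaks over its whole length with 0 peaks in both Tibetan groups.

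On the TH side the longest runs were 3 windows. At chr14:47976501-47978000 the TH peaks held 83, 85, 60 and 44 tags, and TL and YH had 1 peak each. At chr15:155467501-155469000 the TH peaks held 43 to 76 tags, TL had 4 peaks and YH 3, so that 0 animals of YL stood against a peak in 11 of the 12 other animals. At chr16:85862501-85864000 the TH peaks held 33 to 75 tags, and 0 animals of TL or YH had a peak. Of the runs of 2 windows with the most tags, chr1:9873001-9874000 had 3 TL peaks and 1 YH peak, the direction of breed, and chr8:76699501-76700500 had at most 1 TL and 0 YH peaks, with a YL peak 107 bp away.

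Differences over a longer range were sought in bins of 100 kb by the sum of the window counts. In 12945 bins with at least 40 counts over both lists the median ratio of YL to TH was 1.26. A ratio of at least 2 was found in 805 bins (6.22%), and a ratio of at most 0.5 in 45 (0.348%). Most stood alone, and on the YL side 692 were single bins, 50 runs had 2 bins, 2 had 3 bins and 1 had 7 bins. This run of 7 adjacent bins, chr8:43200001-43900000, was chosen for its length after these values were seen, and its TH and YL values are a description.

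In this 700 kb block of chromosome 8, the window counts summed to 177 in TH and 643 in YL, a ratio of 3.63, against 1.41 in the 500 kb on either side. The ratio was between 2.38 and 4.45 in the first 6 bins, in no steady order, and 9.5 in the last, where TH had 10 counts and YL had 95. The reversed pair, which took no part in the choice, had sums of 175 in TL and 484 in YH, a ratio of 2.77, against 1.27 in the flanks. Both Yorkshire groups were thus higher than both Tibetan groups, at either elevation. In each of the 7 bins YL was above TH and YH was above TL, with YH to TL ratios of 1.42 to 6.64. The block held 21 windows of 4 YL against 0 TH peaks, 0 windows of 4 TH against 0 YL peaks and 3 windows of 4 YH against 0 TL peaks.

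The peaks in the block also held more tags in Yorkshire pigs. The median peak had 25.5 tags in TH and 23 in TL, close to the 24 tags of both in the flanks, but 64 tags in YL and 45.5 in YH, against 32 and 26 in the flanks. The median fold enrichment of the peaks was not higher there, with 6.09 in YL and 5.95 in YH against 7.80 in TH and 7.66 in TL. No library of unenriched DNA was used here, so more DNA copies of the block and more methylation per copy cannot be told apart. As background, KIT, a receptor gene of pigment cells of which white pig breeds carry extra copies, also lies on chromosome 8 in pigs, but whether the block holds it was not tested. Without the block, the YL side held 2408 windows and 65.9% of them had more YH peaks, so the genome-wide values did not rest on it.

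**Figure D4:**
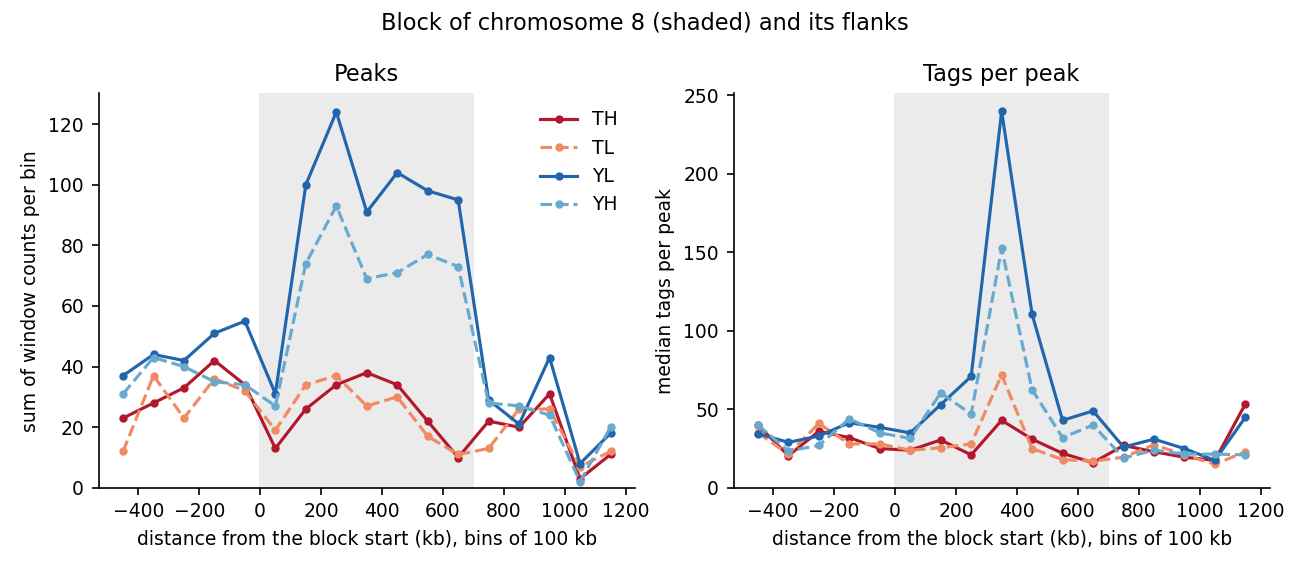
Sum of window counts (left) and median tags per peak (right) in bins of 100 kb against the distance from the start of the block on chromosome 8 in kb, for the 4 groups; the shaded area is the 700 kb block. From the second to the last bin of the block the YL line (91 to 124 counts) and the YH line (69 to 93) lie above both Tibetan lines (10 to 38).

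Genes were read at windows that the study lists as differentially methylated with a gene name. Only the part of that list used here was read, for positions and names and no values. It covers chromosomes 1 and 10 to 14 and holds windows for 10 of the 19 key genes of the study, so genes on other chromosomes were not analysed here. It was chosen by the study on these same animals, in other pairings of the groups, so neither a difference between TH and YL nor its direction in TL and YH is independent evidence at these windows. Of 330 gene windows of 164 genes, 320 windows of 163 genes were used. The 10 windows given for LEP were left out, because its gene ID lies on another chromosome in RefSeq than the listed one. At least 1 TH or YL peak lay over 182 of the windows, with more in YL at 114, more in TH at 45 and equal counts at 23. Over all tested windows of the genome, YL had more in 49.96% and TH in 30.8%, a tilt to YL against which the counts at gene windows and in the gene lists that follow have to be read. A difference of 3 or 4 peaks was found with more in YL at 22 windows of 14 genes (12.1% of the 182, against 3.45% of all tested windows) and with more in TH at 7 windows of 7 genes (3.85%, against 0.925%). Of the 22, YH had more peaks than TL at 19 and the counts were equal at 3. Of the 7, TL had more at 4, YH had more at 1 and the counts were equal at 2.

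Full separation was found at 5 gene windows of 4 genes, all with 4 YL peaks and 0 TH peaks, the side that also held more of all tested windows (0.473% against 0.0582%). UBE2E2 (listed as LOC780417), which encodes a ubiquitin-conjugating enzyme, had 2 adjacent intronic windows at chr13:11761501-11762500. The YL peaks there held 27 to 41 tags, and YH also had 4 peaks, of 23 to 41 tags, while TL had 1 peak of 20 tags. A peak was thus present in 8 of 8 Yorkshire and 1 of 8 Tibetan animals. In an intron of ESD, which encodes S-formylglutathione hydrolase, the window chr11:21000501-21001000 had 4 YL peaks of 15 to 36 tags, 3 YH peaks of 21 to 27 tags and 0 TH or TL peaks. With peaks of at least 20 tags, YL exceeded TH by 3 peaks at this window. In an intron of AGPAT4, which encodes an acyltransferase of phospholipid synthesis, the window chr1:8361001-8361500 had 4 YL peaks of 32 to 96 tags, 2 YH peaks and 1 TL peak. An intronic window of NPG3, a protegrin gene of antimicrobial peptides, at chr13:34231001-34231500, had 4 YL peaks of 29 to 94 tags, 3 YH peaks of 106 to 153 tags and 1 TL peak of 22 tags. With peaks over any base of this window in place of base 250, YL exceeded TH by 2 peaks. At 3 further intronic windows of NPG3, YL had 3 or 4 peaks, YH 4, TH 0 or 1 and TL 0. Its gene ID had no entry in RefSeq, and protegrin genes are near-identical copies, so reads there can come from more than 1 of them.

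**Figure D5:**
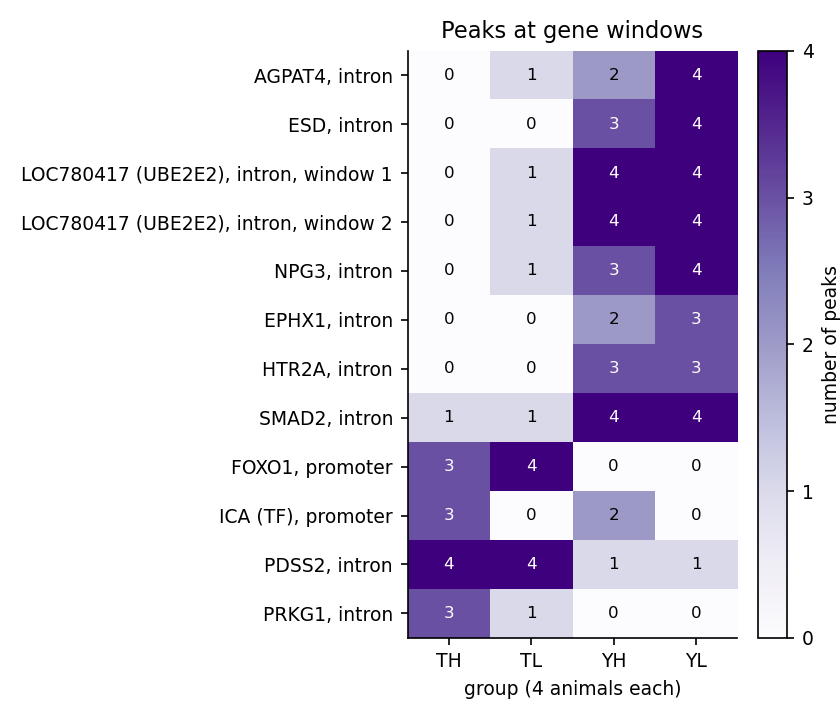
Number of peaks (0 to 4, colour and digits) in the 4 groups (horizontal axis) at the named gene windows that differed by 3 or 4 peaks between TH and YL (vertical axis, with the part of the gene). At the 8 upper windows YL has 3 or 4 peaks and TH 0 or 1, and at the 4 lower windows TH has 3 or 4 and YL 0 or 1.

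In growth factor and insulin signalling, 15 of the 16 listed genes had a usable window, 27 windows in all. TH or YL peaks lay over 11 of these, with more in YL at 6, more in TH at 4 and equal counts at 1, and the median difference over the 27 windows was 0. FOXO1 encodes a transcription factor that insulin and growth factor signals hold out of the nucleus. Its promoter window chr11:15692001-15692500 had 3 TH peaks of 15 to 28 tags and 4 TL peaks of 18 to 49 tags, and no Yorkshire animal had a peak. At the adjacent window chr11:15691501-15692000, TH had 2 peaks and TL 4, again with 0 in both Yorkshire groups. Both windows had more peaks in the Tibetan group of each pair. The difference of 3 against 0 between TH and YL had p = 0.143 in Fisher's exact test, and with peaks of at least 20 tags it was 1 peak.

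SMAD2 encodes a carrier of transforming growth factor beta and activin signals into the nucleus. Its intronic window chr1:106962501-106963000 had 1 peak in TH and in TL, of 20 tags each, and 4 peaks in YL (16 to 27 tags) and in YH (22 to 32 tags). The other genes of this list named by the study showed smaller differences. IGF1R, the receptor of insulin-like growth factor 1, had 3 TH and 4 YL peaks at chr1:153532001-153532500, with 4 each in TL and YH, and 0 in all groups at its other window. STAT5B, a transcription factor of growth hormone signalling, had 1 TH, 2 YL, 2 TL and 0 YH peaks. FGFR2, a fibroblast growth factor receptor, had a peak in 1 YH animal and 0 in the other groups. GRB2, an adaptor of growth factor receptors, and MAP2K1, a kinase of the mitogen-activated pathway, had 0 peaks in all groups over base 250 of their windows. With peaks over any base of the window, YL exceeded TH by 2 peaks at MAP2K1.

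Among genes of vessels, heart and muscle, all 15 listed genes had a window, 24 in all. Peaks of TH or YL lay over 15 of these, with more in YL at 9, more in TH at 3 and equal counts at 3 (median difference 0 over the 24 windows), where all tested windows had 49.96% with more in YL and 30.8% with more in TH. HTR2A, a serotonin receptor of smooth muscle and nerve, had 3 YL and 3 YH peaks and 0 in both Tibetan groups at the intronic window chr11:20940001-20940500. PRKG1, the cyclic GMP-dependent kinase that relaxes smooth muscle, had 3 TH peaks of 16 to 28 tags, 1 TL peak and 0 in both Yorkshire groups at chr14:106976001-106976500, in an intron. With peaks of at least 20 tags, its TH count exceeded that of YL by 1. ERG, a transcription factor of endothelial cells, had 1 peak in YL and 1 in YH.

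Among genes of mitochondria, oxygen and intermediary metabolism, all 21 had a window, 29 in all. TH or YL peaks lay over 18 of these, with more in YL at 10, more in TH at 5 and equal counts at 3 (median difference 0 over the 29 windows), beside the same 49.96% and 30.8% of all tested windows. PDSS2, an enzyme of coenzyme Q synthesis, had 4 TH peaks of 15 to 41 tags and 4 TL peaks of 15 to 22 tags in the intronic window chr1:82664001-82664500, against 1 peak of 14 tags each in YL and YH. EPHX1, a microsomal epoxide hydrolase, had 3 YL and 2 YH peaks and 0 in both Tibetan groups in an intron at chr10:16021001-16021500. ICA, which the study describes as an inhibitor of carbonic anhydrase of pigs, is listed with a gene ID that RefSeq names TF. TF is the gene of transferrin, the iron carrier of blood plasma, and which of these genes the window belongs to was not tested. The promoter window listed for ICA, chr13:82337501-82338000, had 3 TH peaks of 23 to 75 tags, 2 YH peaks of 20 and 25 tags, and 0 in both lowland groups. Here the reversed pair went in the direction of elevation. BCKDHB, a subunit of the enzyme complex that breaks down branched-chain amino acids, had 3 TH and 3 YL peaks at chr1:96439001-96439500, with 4 TL and 1 YH, and 0 TH and 2 YL peaks at chr1:96710001-96710500. At its window chr1:96711001-96711500, TH had 2 peaks, YL had 3, and TL and YH had 1 each. EPHX2, a soluble epoxide hydrolase, had 1 peak, in TH, in its promoter window.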

How the data were processed

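Per the labels, MeDIP-seq was done on heart DNA of 16 pigs, 4 per group. According to the methods of the study, FASTX, Bowtie (genome build Sscrofa10.2) and MACS were used for trimming, mapping and peak calling. A single list of peaks for each group was deposited. A peak's tags are a raw count and its fold enrichment a ratio, both as the authors' peak caller gave them, and neither is scaled to the reads of an animal. The study summarises the reads of each animal elsewhere. They cannot be tied to single peaks, which name no animal, and were not used here, so only the tags in peaks are given.

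Peaks on chromosomes 1 to 18 were compared by overlap of at least 1 bp, and by the number of peaks over base 250 of windows of 500 bp, with Fisher's exact test (two-sided) and Benjamini-Hochberg adjustment. Counting was tested on simulated data. Alternatives were a reciprocal overlap of 50%, covered bases, at least 3 peaks against 0, peaks over any base of a window, runs counted once, peaks of at least 20 tags, and the YL list reduced by tags to the TH number. Added after seeing the data were the chromosome 8 block left out, windows beyond 2000 bp from the other list, bins of 100 kb, and stretches of genes.

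The members and gene lists were chosen with earlier results of these data known. Genes were named where a listed window had 4 peaks against 0, where the study's key genes or its bisulfite sequencing held the gene, or where a gene of 3 lists differed by 3 or more peaks. The result at 1 gene is not given. Regions named were the 5 longest runs in each direction, ties by tags. RefSeq (163 of 164 gene IDs matched) was used for names and chromosomes only. Python 3.11.15 was used with Matplotlib 3.10.9, SciPy 1.17.1, NumPy 2.4.6 and pandas 2.3.3.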

Additional observations from a re-analysis of the deposited data

How the results depend on the processing

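No paired analysis was possible because the peaks carry no replicate number, and for the same reason no animal could be left out. With a reciprocal overlap of 50%, 75.8% of TH and 72.6% of YL peaks were shared, by covered bases 68.5% and 60.2%, with the YL list at the TH number of peaks 75.1% and 80.4%, and with peaks of at least 20 tags 82.4% and 74.1%. With at least 3 peaks against 0 there were 3929 TH and 12867 YL windows (TH share 23.4%), with more TL at 37.6% of the TH windows and more YH at 56.4% of the YL windows. Peaks over any base of a window gave 460 TH windows. Peaks of at least 20 tags gave 135 TH windows (TH share 6.01%) and more YH at 68.7% of YL windows. The YL list at the TH number of peaks gave a TH share of 18.02%. Beyond 2000 bp from the other list, 166 TH and 1243 YL windows were left, which the construction of that setting brings. YL stayed the larger side and breed the more frequent direction in each of these settings in which it was counted. The other 23 values were within 1.5 times the count or within the interval of the value reported, and of 50 values at named gene windows 46 moved by at most 1 peak and 0 changed sign. Depth limits these counts, because a peak needs enough tags to be called and 0 peaks does not show that methylation is absent.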

Other observations

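Between the first and last listed window of a gene, stretches of 40 genes were read after the windows had been seen, without a test. UBAP1 also had several listed intronic windows but was left out. These 40 stretches held 10 windows of 4 peaks against 0 in 6 genes, all with 4 in YL, and 6 of the 10 were not in the list of the study. Over all tested windows of the genome, 0.473% had 4 in YL and 0 in TH, against 0.0582% with 4 in TH and 0 in YL. The share within the stretches was not computed, so no excess can be read from the 10 windows. In DESI2, a gene of a desumoylating peptidase family, 3 adjacent windows at chr10:19709001-19710500 had 4 YL peaks, 0 TH peaks and 1 peak each in TL and YH. In NR5A2, a nuclear receptor of bile acid and cholesterol metabolism, chr10:27323001-27323500 had 4 YL and 2 YH peaks against 0 TH and 1 TL, and chr10:27324001-27324500 had 4 YL and 2 YH peaks against 0 in both Tibetan groups. In LIPC, the gene of hepatic lipase, chr1:125475501-125476000 had 4 YL, 4 TL and 3 YH peaks against 0 in TH. Of the 10 genes with at least 5 listed windows, 8 had more windows with an excess of YL peaks and 2, PIP4K2A and GDI2, had more with an excess of TH peaks, where over all tested windows of the genome YL had more peaks in 49.96% and TH in 30.8%. PIP4K2A, a lipid kinase, had more TH peaks at 49.0% and more YL peaks at 24.5% of its 49 windows with a peak, with means of 1.18 TH and 1.04 YL peaks. The stretch of GDI2 was 3 kb long and had 4 windows with a peak, with a mean of 1 TH peak and 0 peaks in YL, TL and YH.

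The widest ratio between the native groups in a 100 kb bin was on the TH side. The bin chr5:800001-900000 had a window count of 56 in TH and 4 in YL, with 24 in TL and 37 in YH, so that YL stood apart from the other 3 groups and the reversed pair went in the direction of elevation. The second bin on the YL side after that of the chromosome 8 block, chr10:17000001-17100000, had 9 counts in TH and 55 in YL, with 24 in TL and 22 in YH.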
